A study of Bubalus bubalis with 12 samples.

Results

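KAT7, ASH2L, UHRF1, RNF2, CHD1 and SMYD1 are 6 genes for regulators of histone and DNA methylation or of neighbouring chromatin marks, and they make up 6 of the 9328 gene symbols on the array used here. They were selected on their ChIP over input ratios in earlier results of these same arrays, and their probes are all non-control probes that the array names for one of the 6 genes. These come to 52 of 177440 probes, and all 52 passed the filter on input signal. KAT7 has 28 of them, CHD1 has 13, ASH2L, UHRF1 and SMYD1 have 3 each and RNF2 has 2. Because the fertility comparison was already known when the genes were picked, their ratios are given as a description and carry no test.

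The arrays measured chromatin from cryopreserved sperm of 6 water buffalo (Bubalus bubalis) bulls, 3 described as subfertile (SF1, SF4 and SF5) and 3 as high-fertile (HF2, HF3 and HF5). Cross-linked sperm chromatin was cut with micrococcal nuclease and precipitated with an antibody to histone H3 dimethylated at lysine 4 (H3K4me2) or trimethylated at lysine 27 (H3K27me3). Precipitated DNA carried Cy5 and the input DNA of the same bull carried Cy3 on all 12 arrays, with 1 array for each bull and mark and no dye swap. The labels give no age, breed or fertility score, and no treatment. Values below are log2 ratios of ChIP over input with the median of each array set to 0, and a gene's value is the mean of its probes.

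H3K4me2 marks the promoters of genes that are active or poised, while H3K27me3 is laid down by Polycomb complexes at silenced genes, and sperm keep a small share of nucleosomes that can carry both. The 6 genes encode proteins that write, read or maintain such marks. KAT7 (also HBO1) is a MYST-family acetyltransferase of histones H3 and H4. ASH2L is a core subunit of the complexes that methylate H3K4. UHRF1 binds hemimethylated DNA and brings in DNMT1 when methylation is copied after replication, and RNF2 (RING1B) is the ubiquitin ligase of Polycomb repressive complex 1. CHD1 is a chromodomain remodeller that binds methylated H3K4, and SMYD1 is a lysine methyltransferase known from heart and skeletal muscle. An array of this kind reports the mark at the gene's own DNA, not the amount of the encoded protein.

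Sequences on which the comparisons within KAT7, SMYD1, ASH2L and UHRF1 turn are shown first, because values changed between short stretches of DNA within a gene. Positions are those of the cattle build HGSC Btau_3.1 on which the array was designed, and the letters are the array's own probes, not reads of buffalo DNA, read in the direction of increasing coordinates where overlapping probes show it. Capitals mark CpG dinucleotides. The first is the stretch of KAT7 covered by 12 overlapping CpG island probes, at chr19:38038647-38038750. The second is the KAT7 stretch of 8 CpG island probes at chr19:38038849-38038937, and the third is the stretch of 5 probes at chr19:38038886-38038961 that overlaps it, shown because its ratios differed far less between the groups. SMYD1 has 3 overlapping CpG island probes at chr11:49696717-49696784, ASH2L has 1 CpG island probe at chr27:35512326-35512385 that differed from its neighbours, and UHRF1 has 1 promoter probe at chr7:17821794-17821853.
KAT7, 12 probes: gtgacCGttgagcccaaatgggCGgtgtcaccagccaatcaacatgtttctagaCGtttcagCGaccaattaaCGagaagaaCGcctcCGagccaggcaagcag
KAT7, 8 probes: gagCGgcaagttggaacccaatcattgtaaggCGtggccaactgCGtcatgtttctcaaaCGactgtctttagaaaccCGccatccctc
KAT7, 5 probes: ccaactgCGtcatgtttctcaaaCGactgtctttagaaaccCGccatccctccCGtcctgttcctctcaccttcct
SMYD1, 3 probes: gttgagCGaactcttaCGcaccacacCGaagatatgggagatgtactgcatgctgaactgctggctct
ASH2L, 1 probe: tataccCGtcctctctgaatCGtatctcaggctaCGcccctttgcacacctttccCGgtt
UHRF1, 1 probe: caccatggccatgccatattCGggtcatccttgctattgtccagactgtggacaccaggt
The array names the class of each probe (CpG island, promoter or coding), and no exon, intron or UTR annotation of this build was used here. The 12-probe KAT7 stretch is 104 bases long with 7 CpG dinucleotides, and the SMYD1 stretch is 68 bases long with 3.

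Depth on an array is brightness over background. The median spot signal of an array was 321 to 479 units in input and 356 to 1360 units in ChIP, and the lowest ChIP medians were those of SF5, at 356 for H3K4me2 and 530 for H3K27me3, followed by HF5 for H3K4me2 (588). Input was well above background at 97.1% or more of the probes of every array. Across all 6805 genes with at least 2 probes, the arrays of both marks of 1 bull correlated at r of 0.25 to 0.86, against a median of 0.01 over 30 pairs of different bulls with the same mark. Both arrays of a bull lie on 1 slide and share their input, and only 1 slide held bulls of both groups (SF1 and HF5), so for the other bulls slide and animal cannot be told apart. Of the marker lists, 9 sperm and spermatid genes, 6 leukocyte, 9 epithelial and 9 somatic testis genes were measured. In H3K4me2, 6 of 9 sperm, 5 of 6 leukocyte, 3 of 9 epithelial and 5 of 9 somatic testis genes were higher in subfertile bulls, and in H3K27me3 these counts were 7, 3, 7 and 6. The median differences of the lists lay between -0.14 and 0.36, and no gene of them was called. Ratios of chromatin are not transcript levels, so they do not show which cells were present.

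At the level of whole genes, KAT7 and ASH2L separated the groups in H3K4me2, and RNF2 and SMYD1 did so in H3K27me3, all 4 with higher ratios in subfertile bulls. No other of the 12 gene and mark combinations separated all 3 bulls of 1 group from all 3 of the other. Over all 6805 genes, the groups did not overlap in 6.58% of genes for H3K4me2 and in 8.57% for H3K27me3. The 6 members were chosen with the same contrast known, so nothing is read from the 2 of 6 in each mark. With limma and Benjamini-Hochberg adjustment no gene was called in either mark (0% of genes), the lowest adjusted p being 0.9999 for H3K4me2 and 0.705 for H3K27me3. At an unadjusted p under 0.05 the same limma fits held 198 genes (2.91%) for H3K4me2 and 277 genes (4.07%) for H3K27me3. With 3 bulls a group, the 95% confidence interval of a gene's difference extended by a median of 1.20 on each side in H3K4me2 and of 1.10 in H3K27me3.

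**Figure D1:**
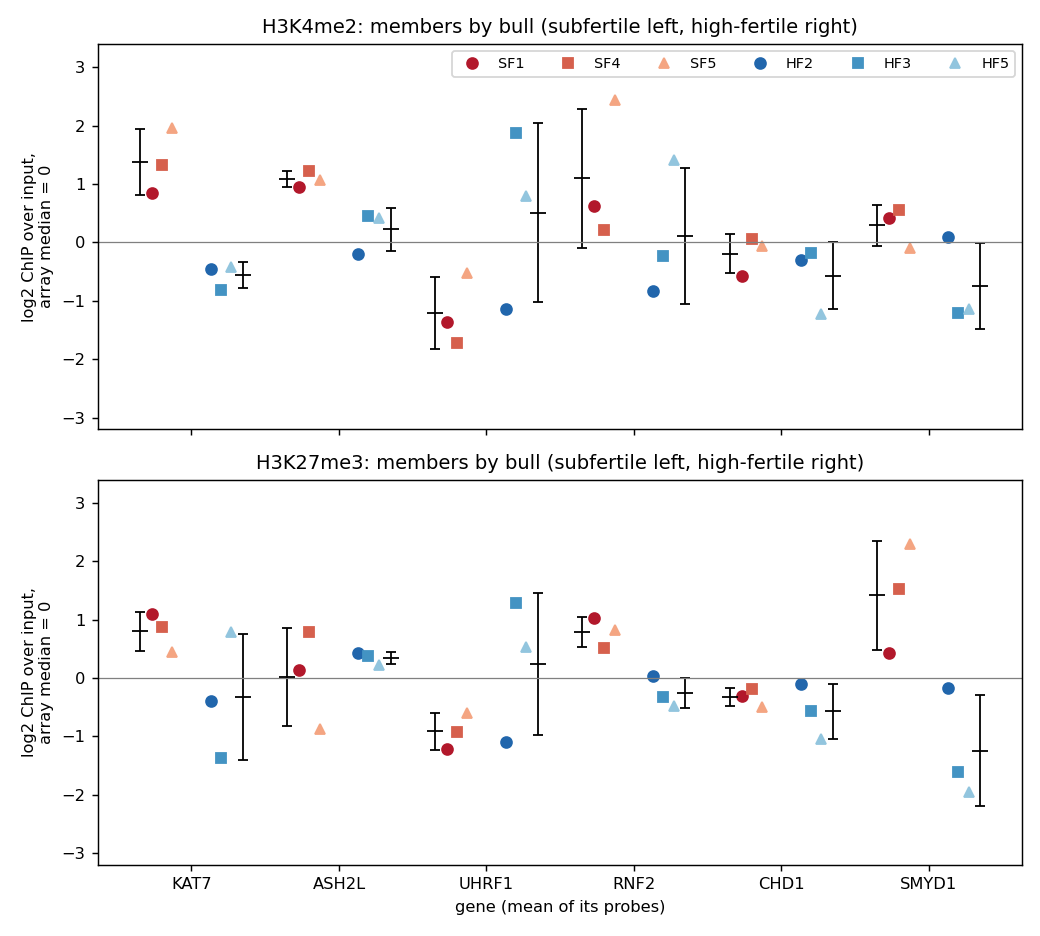
Log2 ChIP over input of the 6 genes in each bull for H3K4me2 (top) and H3K27me3 (bottom), subfertile bulls in reds left of high-fertile bulls in blues, with black bars for the mean and SD of 3 bulls. KAT7 in H3K4me2 and SMYD1 in H3K27me3 show the widest separation, and UHRF1 is the gene with the lower mean in subfertile bulls for both marks.

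KAT7, the member with the most probes, separated the groups in the H3K4me2 ratio but not in its H3K4me2 ChIP signal alone. Its H3K4me2 ratio was 0.85 in SF1, 1.33 in SF4 and 1.97 in SF5, against -0.46 in HF2, -0.82 in HF3 and -0.41 in HF5. All 3 subfertile bulls lay above 0 and all 3 high-fertile bulls below it. The means were 1.38 ± 0.56 in subfertile and -0.56 ± 0.22 in high-fertile bulls (SD, n = 3 each), a difference of 1.94 log2 units. That difference ranked 47th in size among 6805 genes, in a contrast known when the gene was picked, so nothing is read from the rank.

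The H3K27me3 ratio of KAT7 differed less, and its groups overlapped. It was 1.09 in SF1, 0.87 in SF4 and 0.44 in SF5, against -0.39 in HF2, -1.38 in HF3 and 0.79 in HF5. HF5 stood among the subfertile bulls, and the other high-fertile bulls lay below them. The means were 0.80 ± 0.33 in subfertile and -0.32 ± 1.09 in high-fertile bulls (SD, n = 3 each), a difference of 1.13 that was 0.60 without HF3.

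The KAT7 probes were not alike along the gene. In H3K4me2, 27 of 28 probes were higher in subfertile bulls and 14 of 28 separated the groups, where 7.17% of all tested probes did so. In H3K27me3, 26 of 28 were higher in subfertile bulls and 8 of 28 separated the groups, where 8.03% of all tested probes did so. Most of these probes overlap each other by all but 4 or 5 bases, so they report the same DNA and do not count as separate observations. Of the 14 probes that separated the groups in H3K4me2, 12 belong to the stretch at chr19:38038647-38038750.

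In that 12-probe stretch the H3K4me2 ratio was 2.05 in SF1, 1.67 in SF4 and 3.19 in SF5, against -0.48 in HF2, -0.33 in HF3 and -1.12 in HF5. The difference of the means was 2.95, and single probes of the stretch ranged over 2.03 to 3.95. All 12 probes separated the groups. For H3K27me3 the same stretch read 2.15 in SF1, 1.00 in SF4 and 0.07 in SF5, against -0.996 in HF2, -0.96 in HF3 and -0.08 in HF5, a difference of 1.75, and 8 of its 12 probes separated the groups. SF5 was the highest bull in H3K4me2 and the lowest subfertile bull in H3K27me3.

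Split by colour, the stretch behaved differently from bull to bull. Its ChIP signal in H3K4me2, centred on each array, was -1.08 in SF1, 0.90 in SF4 and 2.82 in SF5, against -1.27 in HF2, -0.06 in HF3 and -1.60 in HF5. SF4 and SF5 were above all high-fertile bulls, but SF1 was not. Its input signal, averaged over both arrays of a bull, was -3.21 in SF1, -0.83 in SF4 and -0.47 in SF5, against -0.82 in HF2, 0.11 in HF3 and -0.48 in HF5. The high ratio of SF1 in this stretch thus goes with a dim input and not with a bright ChIP signal. Raw input brightness there had a median of 59.2 units in SF1 and 221 or more in SF4 and SF5, against 196 to 374 units in high-fertile bulls on the H3K4me2 arrays, and 1 of the 12 input spots of SF1 was not well above background on each of its arrays. The part of the dim input in the ratio of SF1 was not tested.

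At higher coordinates the difference was smaller. The 8-probe stretch at chr19:38038849-38038937 had H3K4me2 ratios of 0.00 in SF1, 1.87 in SF4 and 0.88 in SF5, against -0.67 in HF2, -1.93 in HF3 and 0.26 in HF5, a difference of 1.70 with overlap. Here HF3 was the lowest bull and SF4 the highest. In H3K27me3 it read 0.64 in SF1, 1.64 in SF4 and 0.84 in SF5, against 0.16 in HF2, -2.54 in HF3 and 1.91 in HF5. HF5, not a subfertile bull, was the highest in that mark. Its input signal was lowest in SF4 (-1.51) and highest in HF3 (1.76), the same bulls that stood at the ends of the H3K4me2 ratio.

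The 5 probes at chr19:38038886-38038961 share most of their bases with the 8-probe stretch but hybridised to far more input DNA, with a mean centred input of 2.67. Their H3K4me2 ratios were -0.19 in SF1, 0.24 in SF4 and 1.16 in SF5, against -0.20 in HF2, -0.61 in HF3 and 0.08 in HF5, a difference of 0.64. In H3K27me3 the difference of these 5 probes was 0.08. A single probe at chr19:38038714-38038773, which overlaps the end of the 12-probe stretch, was also bright and gave H3K4me2 ratios of 0.14 in SF1, 0.98 in SF4 and 2.53 in SF5, against -0.19 in HF2, -0.81 in HF3 and 0.21 in HF5. In that probe SF1 lay below HF5, although SF1 averaged 2.05 over the overlapping stretch. Over the 27 CpG island probes, the subfertile minus high-fertile difference correlated with mean input at r of -0.88 in H3K4me2 and -0.91 in H3K27me3. This is a description over overlapping probes whose ratio contains the input.

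**Figure D2:**
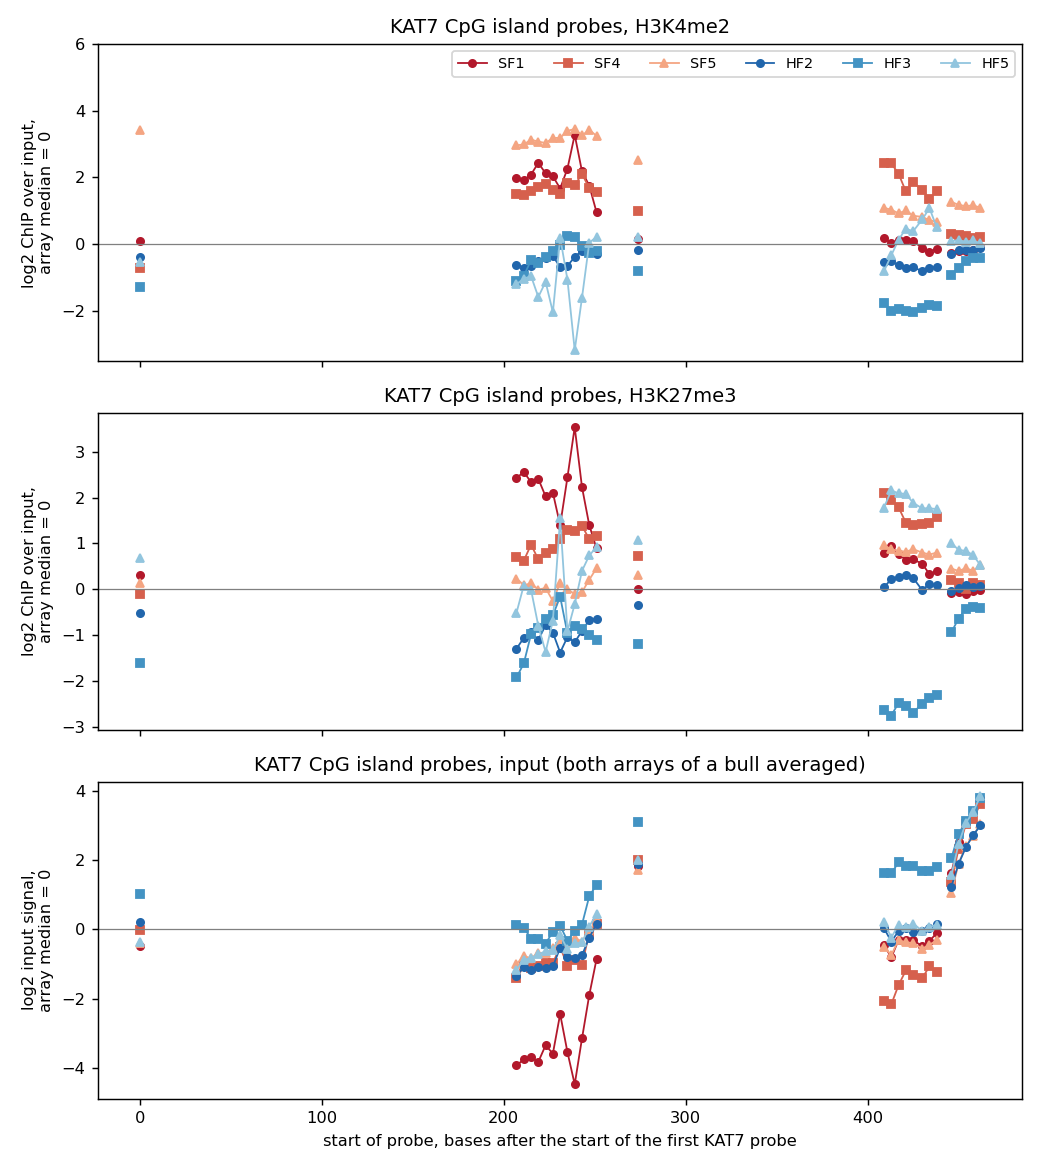
Log2 ratio of the 27 KAT7 CpG island probes in each bull for H3K4me2 (top) and H3K27me3 (middle), and their centred log2 input (bottom), against the start of each probe in bases after the first. Lines join overlapping probes of a stretch; the input of SF1 falls to a mean of -3.21 over the 12-probe stretch, and all bulls' input rises steeply over the 5 probes at the far end.

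The single KAT7 promoter probe, at chr19:38043136-38043195 and 4174 bases beyond the last CpG island probe, went the other way. Its H3K4me2 ratio was -0.15 in SF1, 0.72 in SF4 and -2.01 in SF5, against -0.15 in HF2, 1.57 in HF3 and -0.27 in HF5. The difference was -0.86 in H3K4me2 and -0.51 in H3K27me3, with overlap of the groups. It holds no CpG dinucleotide and 36.7% G and C. Leaving this probe out by keeping only CpG island probes gave KAT7 differences of 2.05 in H3K4me2 and 1.19 in H3K27me3.

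SMYD1 had the largest difference of the 6 genes, in H3K27me3. The ratio was 0.44 in SF1, 1.52 in SF4 and 2.30 in SF5, against -0.17 in HF2, -1.61 in HF3 and -1.95 in HF5. Every subfertile bull was above 0 and every high-fertile bull below it, and SF1 and HF2 were the closest pair across the groups. The means were 1.42 ± 0.93 in subfertile and -1.24 ± 0.95 in high-fertile bulls (SD, n = 3 each), a difference of 2.66. It was the 5th largest of 6805 genes, but the gene was picked with this contrast known, so nothing is read from the rank. All 3 probes separated the groups, but they cover the same 68 bases.

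In H3K4me2 the SMYD1 groups overlapped. The ratio was 0.42 in SF1, 0.56 in SF4 and -0.10 in SF5, against 0.10 in HF2, -1.20 in HF3 and -1.14 in HF5, a difference of 1.04. The input of SMYD1 was -0.11 in SF1, -0.13 in SF4 and -0.63 in SF5, against 0.27 in HF2, 1.55 in HF3 and 1.26 in HF5. All 3 subfertile bulls had less input signal than all 3 high-fertile bulls. The ChIP signal alone differed by 1.34 in H3K27me3 and by -0.30 in H3K4me2, so that the H3K4me2 difference has the opposite sign without division by input.

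ASH2L was higher in subfertile bulls in H3K4me2 and did not follow in H3K27me3. Its H3K4me2 ratio was 0.96 in SF1, 1.23 in SF4 and 1.06 in SF5, against -0.20 in HF2, 0.45 in HF3 and 0.42 in HF5. The groups did not overlap, and the subfertile bulls were close together. The means were 1.08 ± 0.14 in subfertile and 0.22 ± 0.37 in high-fertile bulls (SD, n = 3 each), a difference of 0.86. In H3K27me3 it was 0.14 in SF1, 0.79 in SF4 and -0.88 in SF5, against 0.44 in HF2, 0.37 in HF3 and 0.23 in HF5, a difference of -0.33 that was 0.12 without SF5 and -0.71 without SF4.

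The ASH2L separation rests on 1 of its 3 probes. The probe at chr27:35512326-35512385 gave 1.08 in SF1, 0.63 in SF4 and 0.94 in SF5, against -0.64 in HF2, -1.82 in HF3 and -1.04 in HF5 in H3K4me2, a difference of 2.05. The 2 overlapping probes at chr27:35511673-35511737, 588 bases before it, gave 0.90 in SF1, 1.53 in SF4 and 1.12 in SF5, against 0.02 in HF2, 1.58 in HF3 and 1.15 in HF5. At this pair only HF2 was low, and the difference was 0.27. In H3K27me3 the single probe differed by 1.09 and the pair by -1.03, in opposite directions within 1 gene. The input of the single probe was -0.42 in SF1, 0.20 in SF4 and 0.55 in SF5, against 1.04 in HF2, 2.59 in HF3 and 0.54 in HF5.

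UHRF1 was the member with lower means in subfertile bulls in both marks. Its H3K4me2 ratio was -1.37 in SF1, -1.73 in SF4 and -0.53 in SF5, against -1.14 in HF2, 1.88 in HF3 and 0.80 in HF5. HF2 stood with the subfertile bulls, and HF3 and HF5 stood apart. The means were -1.21 ± 0.61 in subfertile and 0.51 ± 1.53 in high-fertile bulls (SD, n = 3 each), a difference of -1.72. In H3K27me3 it was -1.22 in SF1, -0.93 in SF4 and -0.60 in SF5, against -1.10 in HF2, 1.28 in HF3 and 0.54 in HF5, a difference of -1.15. Without HF3 the difference was -1.04 in H3K4me2 and -0.63 in H3K27me3, and without HF2 it was -1.82 in H3K27me3. The bulls kept almost the same order in both marks, with r of 0.98 over the 6 bulls, whose marks share an input.

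Within UHRF1 the promoter probes carried the difference. The probe at chr7:17821794-17821853 gave -1.68 in SF1, -2.58 in SF4 and -2.13 in SF5, against -0.54 in HF2, 1.96 in HF3 and 1.67 in HF5 in H3K4me2, a difference of -3.16 without overlap. The other promoter probe, at chr7:17822164-17822223, gave -1.85 in SF1, -1.34 in SF4 and -0.22 in SF5, against -2.13 in HF2, 2.52 in HF3 and 1.45 in HF5. There HF2 was the lowest bull. The CpG island probe, whose position the array gives only as the region chr7:17802563-17802793, differed by -0.26. At the first promoter probe the H3K4me2 arrays' input was 0.71 in SF1, 0.68 in SF4 and 0.09 in SF5, against -0.34 in HF2, -3.22 in HF3 and -1.27 in HF5, and its ChIP signal differed by -1.06. HF3 and HF5, the bulls with the high ratios, had the dimmest input.

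RNF2 separated the groups in H3K27me3 as a gene, but neither of its probes did so alone. Its H3K27me3 ratio was 1.02 in SF1, 0.51 in SF4 and 0.82 in SF5, against 0.03 in HF2, -0.32 in HF3 and -0.48 in HF5. The means were 0.78 ± 0.26 in subfertile and -0.26 ± 0.26 in high-fertile bulls (SD, n = 3 each), a difference of 1.04. In H3K4me2 it was 0.63 in SF1, 0.22 in SF4 and 2.44 in SF5, against -0.83 in HF2, -0.24 in HF3 and 1.41 in HF5. SF5 and HF5, the bulls with the dimmest H3K4me2 arrays, were the highest of their groups. The H3K4me2 difference of 0.98 was 0.31 without SF5, 0.51 without HF2 and 1.63 without HF5.

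Each of those high RNF2 values came from a different probe. The promoter probe at chr16:63838834-63838893 read 3.72 in SF5 and -0.65 in HF5 in H3K4me2, while the one at chr16:63841509-63841568 read 1.17 in SF5 and 3.47 in HF5. The probes lie 2615 bases apart. On the H3K4me2 array of HF5, 1 of the 2 RNF2 probes had a ChIP signal not well above background.

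CHD1 differed least between the groups. Its H3K4me2 ratio was -0.57 in SF1, 0.06 in SF4 and -0.07 in SF5, against -0.31 in HF2, -0.17 in HF3 and -1.22 in HF5, a difference of 0.37. Its H3K27me3 ratio was -0.31 in SF1, -0.18 in SF4 and -0.49 in SF5, against -0.11 in HF2, -0.57 in HF3 and -1.04 in HF5, a difference of 0.24. The groups overlapped in both marks, and HF5 was the lowest bull in both. Without HF5 the difference was 0.047 in H3K4me2 and 0.0092 in H3K27me3. The H3K4me2 difference was 0.56 without SF1, 0.25 without SF4 and 0.57 without HF3, and the H3K27me3 difference was 0.48 without HF2. Without HF5 and SF5 together the H3K4me2 difference was -0.017. All 13 probes are promoter probes placed by the array only within chr7:99652611-99657611, so no profile by position can be given, and 1 of them was an outlier spot left out for SF1 in H3K27me3.

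The low CHD1 mean of HF5 lay in the probes poor in G and C. SF5 was also low in those probes, though its H3K4me2 mean over all 13 probes was -0.07. The 8 probes under 50% G and C averaged -0.66 in SF1, 0.00 in SF4 and -1.09 in SF5, against -0.49 in HF2, -0.28 in HF3 and -1.97 in HF5 in H3K4me2. The 5 probes with at least 50% averaged -0.44 in SF1, 0.15 in SF4 and 1.56 in SF5, against -0.02 in HF2, 0.00 in HF3 and -0.01 in HF5. The richer probes of HF5 ran from -1.42 to 0.87 around a mean near 0, while its poorer probes averaged lowest of all bulls. SF5 averaged highest of all bulls in the richer probes, 1 of which read 3.99, and was second lowest in the poorer ones. Across the 13 probes, r between G and C content and ratio was 0.50 in SF5 and 0.84 in HF5 for H3K4me2, and 0.50 and 0.81 in the same bulls for H3K27me3. In the other bulls it ran from -0.05 in SF4 to 0.42 in HF2 for H3K4me2. For H3K27me3 it ran from 0.01 in SF1 to 0.14 in HF3. Over all 62794 kept probes under 50% G and C, the mean H3K4me2 ratio was -0.27 in SF5 and -0.40 in HF5, so the slope is not limited to CHD1. Removing each array's own trend with G and C content, a step chosen after seeing the data, left the CHD1 differences at 0.37 in H3K4me2 and 0.20 in H3K27me3. Of the CHD1 probes, 2 of SF5 and 3 of HF5 had an H3K4me2 ChIP signal not well above background.

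**Figure D3:**
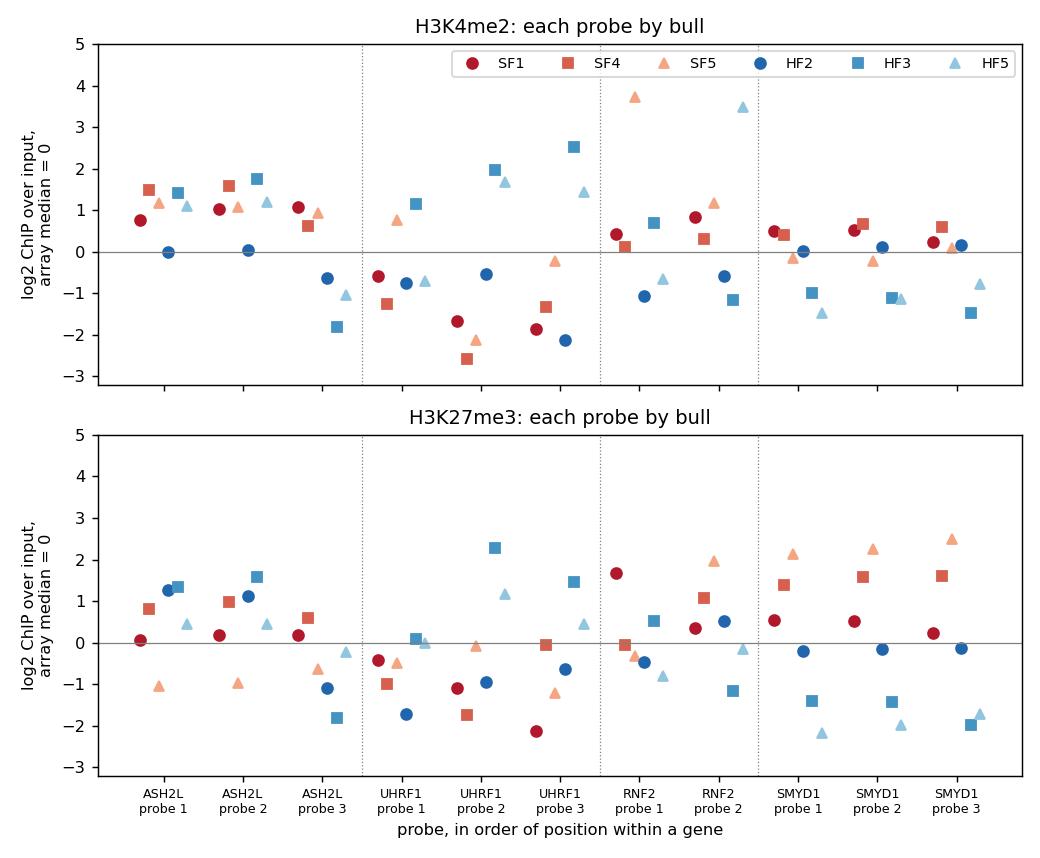
Log2 ChIP over input of each probe of ASH2L, UHRF1, RNF2 and SMYD1 by bull for H3K4me2 (top) and H3K27me3 (bottom), subfertile bulls in reds left of high-fertile bulls in blues. Neighbouring SMYD1 probes repeat each other, while ASH2L probe 3 differs from probes 1 and 2 and the RNF2 probes have their highest H3K4me2 values in different bulls.

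**Figure D4:**
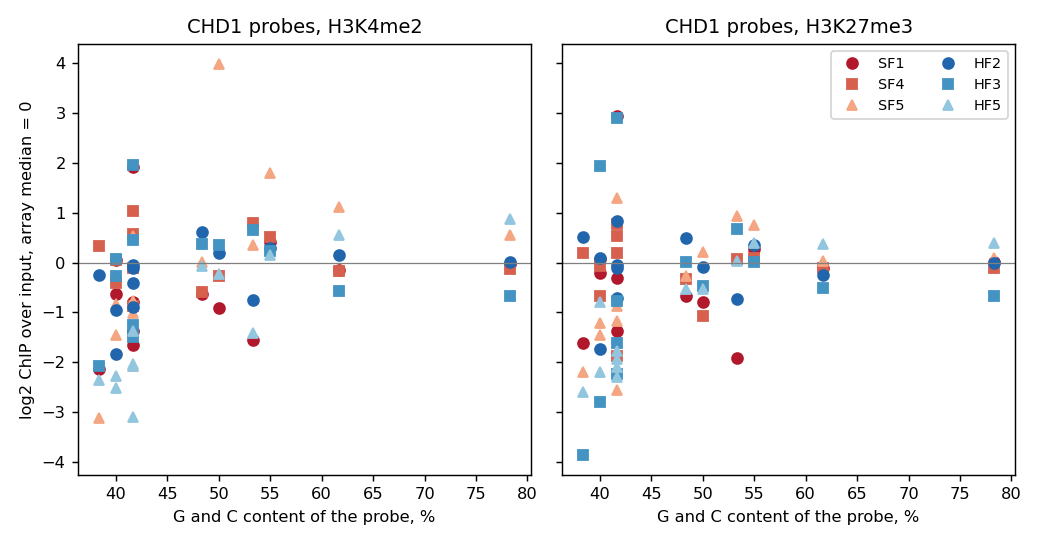
Log2 ChIP over input of the 13 CHD1 promoter probes against their G and C content in percent, for each bull and mark. In H3K4me2, HF5 (light blue triangles) averages -0.01 over the 5 probes at 50% or more, which lie on both sides of 0, and -1.97 over the 8 probes below 50%.

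Input signal was fitted on its own across all genes, but it is the denominator of the ratios the genes were selected on, so its comparison is not independent of that choice. Averaged over both arrays of a bull, the input difference between subfertile and high-fertile bulls was -0.91 for KAT7, -0.58 for ASH2L, 0.94 for UHRF1, -0.26 for RNF2, -0.058 for CHD1 and -1.32 for SMYD1. In all 6 genes the sign was opposite to that of the H3K4me2 ratio difference, of which the input is the denominator, and CHD1 had the smallest input difference. In limma no gene of the array was called (0%, lowest adjusted p 0.997), with 241 genes (3.54%) at an unadjusted p under 0.05. SMYD1 and ASH2L were the members whose input did not overlap between groups, where 7.77% of all genes had no overlap.

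The ratio differed more between the groups than the ChIP signal alone in every gene and mark except ASH2L in H3K27me3. With ChIP signal alone the KAT7 difference was 1.04 in H3K4me2 and 0.18 in H3K27me3, against 1.94 and 1.13 with the ratio. For ASH2L in H3K4me2 it was 0.34, for UHRF1 -0.77 in H3K4me2 and -0.26 in H3K27me3, and for RNF2 0.72 and 0.74. The ChIP signal of KAT7 in H3K4me2 was -0.02 in SF1, 1.08 in SF4 and 2.13 in SF5, against -0.35 in HF2, 0.50 in HF3 and -0.07 in HF5. On that measure SF1 lay within the range of the high-fertile bulls. ASH2L in H3K4me2 also overlapped with ChIP signal alone, with SF1 at 0.12 and HF5 at 0.48. So did RNF2 in H3K27me3, with SF1 at -0.24 and HF2 at -0.07. SMYD1 in H3K27me3 stayed separated, with SF1 at 0.38 as the lowest subfertile and HF2 at 0.13 as the highest high-fertile bull. The part of the input in these differences was not tested beyond these values.

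**Figure D5:**
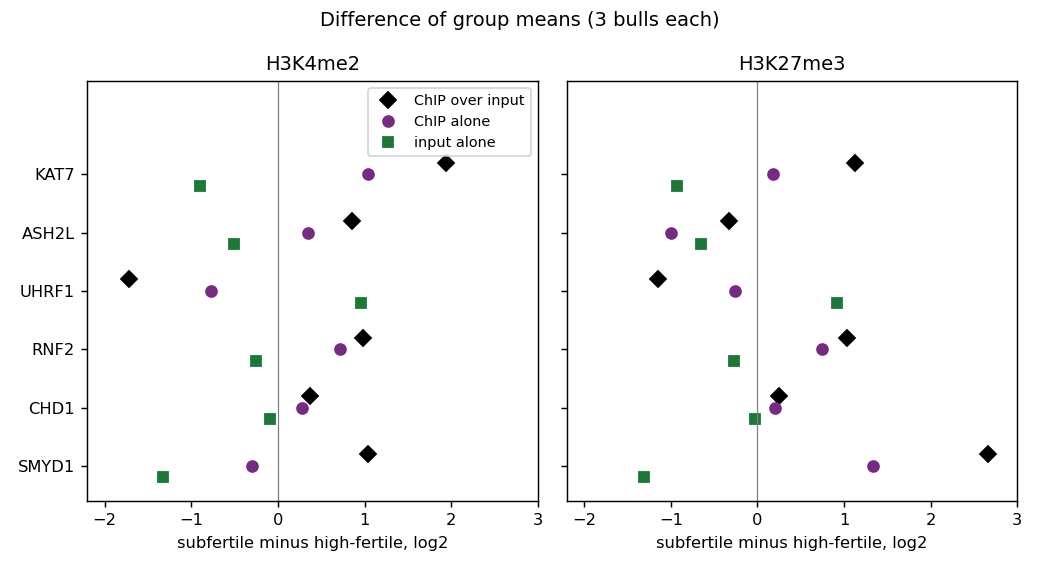
Subfertile minus high-fertile difference of group means (3 bulls each, log2) for ChIP over input (diamonds), ChIP alone (circles) and input alone (squares), for H3K4me2 (left) and H3K27me3 (right). SMYD1 in H3K4me2 is the case in which ChIP alone (-0.30) and ratio (1.04) differ in sign.

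The marks were then set beside each other within each bull. The centred ratio of ASH2L was higher for H3K4me2 than for H3K27me3 in 5 of 6 bulls, by 0.47 ± 0.86 (SD, n = 6). Each of the other genes was higher for H3K4me2 in 3 of 6 bulls. The mean difference was 0.17 ± 0.92 for KAT7, -0.01 ± 0.47 for UHRF1, 0.34 ± 1.14 for RNF2, 0.07 ± 0.32 for CHD1 and -0.32 ± 1.18 for SMYD1 (SD, n = 6 bulls). All of these means were smaller than their SD. Each array is centred on its own median, so these values compare relative positions and not amounts of the marks. Over all genes 59.8% were higher for H3K4me2 on this scale, with a median difference of 0.063. With limma no gene was called between the marks (0%, 41 genes or 0.602% at an unadjusted p under 0.05), and none was called for a fertility difference that depends on the mark (0%, 45 genes or 0.661% at an unadjusted p under 0.05).

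Averaged over all 6 bulls, ASH2L and RNF2 stood high among the genes in H3K4me2, and the means of CHD1 and UHRF1 stood low in both marks. ASH2L averaged 0.65, above 97.1% of genes, and RNF2 averaged 0.60, above 96.2%. These means rest on 3 and 2 probes. In ASH2L the overlapping pair averaged 1.05 and the other probe -0.14. RNF2 had an SD of 1.18 over the 6 bulls, and its mean includes 3.72 in SF5 at 1 probe and 3.47 in HF5 at the other. KAT7 averaged 0.41, above 89.3% of genes, with an SD of 1.13 over the 6 bulls. In H3K27me3, RNF2 stood above 84.2% of genes, KAT7 above 81.9% and ASH2L above 75.9%. CHD1 averaged -0.38 in H3K4me2 and -0.45 in H3K27me3, above 10.0% and 7.58% of genes. UHRF1 averaged -0.35 and -0.34, above 11.6% and 13.3%. Its SDs over the 6 bulls were 1.40 and 1.02, and 2 of 6 bulls were above 0 in each mark. SMYD1 was near the middle in H3K27me3 at 0.09 and lower in H3K4me2 at -0.23. SDs of the single genes over the bulls exceed most of these gaps, so KAT7, RNF2, ASH2L and UHRF1 are not ordered by these means.

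The pathways around the members were read through lists of 8 kinds of chromatin regulators, and no gene of any list was called by limma in either mark. Apart from members and direct partners, the list genes named below have the 2 smallest limma p of a list and mark. Nothing is therefore read from a separation of their groups. Over all genes the groups did not overlap in 6.58% for H3K4me2 and 8.57% for H3K27me3. Of 8 measured genes for H3K4 methyltransferase complexes, 6 were higher in subfertile bulls in H3K4me2 and 2 lower (median 0.42), against 3 higher and 5 lower in H3K27me3 (median -0.12). Over all genes the median was 0.018 in H3K4me2 and -0.0073 in H3K27me3, with 51.8% and 49.3% of genes higher. Besides ASH2L, DPY30, another core subunit of these complexes, differed by 1.08 in H3K4me2, and WDR5, the scaffold subunit, by 0.17. RBBP5, which pairs with ASH2L in the complex, differed by 0.63 in H3K4me2 and by 1.44 in H3K27me3. In H3K27me3 it was 0.25 ± 1.01 in subfertile and -1.20 ± 0.60 in high-fertile bulls (SD, n = 3 each). Its groups overlapped in both marks, with SF5 at -0.72 and HF2 at -0.53 in H3K27me3. DPY30 ranged from -0.61 to 2.19 in subfertile bulls, so its groups overlapped.

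For the KAT7 complexes and other lysine acetyltransferases, 6 of 10 measured genes were higher in subfertile bulls in H3K4me2 (median 0.23) and 7 of 10 in H3K27me3 (median 0.08). EPC2, a scaffold of the NuA4 acetyltransferase complex, had the largest difference in the opposite direction to KAT7. Its H3K4me2 ratio was 1.20 in SF1, 0.44 in SF4 and -1.95 in SF5, against 2.05 in HF2, 1.64 in HF3 and 2.21 in HF5. The groups did not overlap, with a difference of -2.07, and SF5 alone was below 0. CREBBP, an acetyltransferase of H3K27, differed by 1.11, with SF5 at 2.78 and HF5 next at 0.20.

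Of 16 measured genes of Polycomb complexes, 10 were higher in subfertile bulls in each mark (median 0.12 in H3K4me2 and 0.08 in H3K27me3). EZH2, which methylates H3K27, differed by 0.054 in H3K4me2 and 0.15 in H3K27me3. BMI1, the partner of RNF2 in the ligase, differed by -0.38 in H3K4me2 and -0.43 in H3K27me3. E2F6 differed by 1.03 in H3K27me3, with overlap of the groups. RING1 had no matching symbol on the array.

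Of 10 measured genes for DNA methylation and its readers, 3 were higher and 7 lower in subfertile bulls in H3K4me2 (median -0.25), and 4 higher and 6 lower in H3K27me3 (median -0.12). UHRF1 is 1 of the 7 lower ones. PCNA, the sliding clamp of DNA replication, which binds DNMT1, was 0.23 in SF1, -0.14 in SF4 and -1.73 in SF5, against 0.14 in HF2, 0.97 in HF3 and 1.82 in HF5 in H3K4me2. The difference was -1.52, with SF1 above HF2. DNMT1, the partner of UHRF1, has 1 probe and was not measured as a gene.

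Of 21 measured CHD and other remodellers, 9 were higher and 12 lower in subfertile bulls in H3K4me2 (median -0.07), and 7 higher and 14 lower in H3K27me3 (median -0.16). BAZ1A, a subunit of ISWI remodellers, had -0.52 ± 0.11 in subfertile and 0.66 ± 0.21 in high-fertile bulls (SD, n = 3 each) in H3K4me2, on 3 probes. CHD2, the paralog closest to CHD1, was 0.09 in SF1, -0.92 in SF4 and -0.50 in SF5, against 0.21 in HF2, 0.81 in HF3 and 0.77 in HF5 in H3K27me3. Its groups did not overlap, and the difference was -1.04. CHD1 itself differed by 0.24 in that mark.

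Of 11 measured genes of the SMYD family and other lysine methyltransferases, 8 were higher in subfertile bulls in H3K4me2 (median 0.52) and 7 in H3K27me3 (median 0.28). SUV39H2, an H3K9 methyltransferase known from mouse testis, differed by 0.95 in H3K4me2 and 0.72 in H3K27me3, and SETD8, which methylates H4K20, by 0.78 in H3K4me2. SETD4 was lower in H3K27me3, with -0.21 ± 0.04 in subfertile and 0.34 ± 0.27 in high-fertile bulls (SD, n = 3 each). Of 10 histone deacetylases and sirtuins, 3 were higher and 7 lower in subfertile bulls in each mark (median -0.16 in H3K4me2 and -0.11 in H3K27me3). Of 3 measured histone demethylases, 1 was higher in H3K4me2 (median -0.12) and 2 in H3K27me3 (median 0.24). They are KDM5A, which acts on H3K4, KDM3A, which acts on H3K9, and KDM4A, which acts on H3K9 and H3K36, so no H3K27 demethylase was measured as a gene. The counts include the 6 members where a list holds one, and the lists were drawn up with earlier results of these arrays known.

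Genes with the most similar pattern over the 12 arrays lay mostly on other chromosomes. KAT7 was most like ST8SIA1 (r of 0.92), CWC25 (0.89) and ATF1 (0.88), and of these CWC25 is also on chromosome 19. ASH2L was most like MXI1 (0.87), PATZ1 (0.81) and ATXN2L (0.78), and UHRF1 was most like PYGB (0.89), ATP5J (0.89) and RCC2 (0.88). RNF2 was most like MLLT3 (0.93), GRK7 (0.90) and EEF1B2 (0.89). CHD1 was most like C11H2orf49 (0.89), CTNND1 (0.86) and BMP2 (0.85). SMYD1 was most like DHX29 (0.91), GINS1 (0.89) and EIF3D (0.88). These are the highest of 4357 or 4358 genes with at least 5 probes for each member, and the 12 arrays come from 6 bulls, so such values are a description. Among the members themselves, the r largest in size were those of UHRF1 with SMYD1 (-0.70) and KAT7 (-0.61), and of KAT7 with RNF2 (0.59). All other pairs had a smaller r, down to 0.03 for RNF2 with CHD1. The members were selected on these same ratios, so nothing is read from the signs of these r.

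Other genes near the members were few. Within 50 kb of the UHRF1 probes, the mean of the 3 ARRDC5 probes was also lower in subfertile bulls. Their span covers the UHRF1 promoter probe at chr7:17822164-17822223 but not the one at chr7:17821794-17821853. The groups overlapped in both marks, with SF4 at -0.27 and HF2 at -1.02 in H3K4me2. ARRDC5 averaged -0.83 ± 0.49 in subfertile and -0.09 ± 0.88 in high-fertile bulls in H3K4me2 (SD, n = 3 each), a difference of -0.74 in each mark. PLIN3, with 1 probe, differed by 0.033 in H3K4me2 and 1.15 in H3K27me3. Near ASH2L, the 12 probes of EIF4EBP1 differed by 0.53 in H3K4me2 and -0.14 in H3K27me3, and the probe of STAR by -0.33 and 0.24. Near RNF2, TRMT1L differed by 0.10 in H3K4me2 and -0.33 in H3K27me3. KAT7, CHD1 and SMYD1 had no other named gene of the array within 50 kb.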

How the data were processed

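Chromatin of 6 bulls was measured on 12 two-colour Agilent arrays. The authors deposited intensity values per spot and colour, made with Agilent Feature Extraction 10.7 per the submitters' processing notes (10.7.3.1 per the file headers), with spatial trends and background removed and the dyes normalized within each array, per the file headers. The deposited files also hold a log10 ratio and 0 or 1 flags, per the file headers. The authors' value table was read as log2, ChIP over input, after its columns were set against the scanner values (r of 0.74 or more). Every column followed more closely the ratios after within-array loess, which removes a trend with brightness (r of 0.98 or more). The main values here had no loess step. From the processed intensities, log2 Cy5 over Cy3 was computed, 3440 control spots and outlier spots were left out, probes with input well above background on at least 6 arrays were kept (177372 of 177440), and each array was centred on its median. Saturated spots stayed in. Genes with at least 2 probes entered the linear models of limma 3.58.1 (R 4.3.3, two-sided, Benjamini-Hochberg, threshold 0.05), probes on the 175796 with all values. Simulated data with known shifts were used to test the script. The 6 genes, the gene lists and the naming rule were chosen with earlier results of these arrays known. Named were the members, the 2 genes of smallest p per list and mark, direct partners, the 3 most similar genes and neighbours; only some of them are given. The same bull number was read as the same animal across marks: deviations from the group mean correlated at r of 0.32 to 0.75 in ratio and 0.94 to 0.97 in input for every bull. All 6 symbols matched the RefSeq buffalo table.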

Additional observations from a re-analysis of the deposited data

How the results depend on the processing

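No gene or probe was called by limma in any of 113 counts under the settings tried, so these counts say nothing about stability; with bull as a replicate block 0 genes were called in every comparison, and the blocked fit changed no call (within-bull correlation of 0.568 in the random block). Of the members' differences in either mark under the alternatives, 210 moved by less than 1 SD between bulls, 22 moved further and 6 changed sign. Some of the 210 could not move, so their number does not measure stability. Examples are all members in the random block, KAT7 and CHD1 with at least 5 probes, and RNF2 with the median of its 2 probes. Of the 22, 7 came with ChIP signal alone and 6 with ChIP over the mean input of the 6 bulls. The sign changed for SMYD1 in H3K4me2 with ChIP signal alone (-0.30) and with ChIP over the mean input of the 6 bulls (-0.33). It changed for ASH2L in H3K27me3 without SF5 (0.12) and without HF5 and SF5 (0.064), and for CHD1 in H3K4me2 without HF5 and SF5 (-0.017). Within the 1 slide that holds SF1 and HF5, RNF2 in H3K4me2 was -0.79, and KAT7 was 1.26 in H3K4me2. For input, the sign changed for CHD1 with the median of probes (0.13), without SF4 (0.042) and without HF2 (0.01), and for RNF2 without SF1 (0.0010) and without HF2 (0.0089). The cause was not tested. Leaving out each bull in turn gave KAT7 1.65 to 2.21 in H3K4me2 and 0.60 to 1.68 in H3K27me3, SMYD1 2.22 to 3.20 in H3K27me3, UHRF1 -2.55 to -1.04 in H3K4me2 and -1.82 to -0.63 in H3K27me3, RNF2 0.31 to 1.63 in H3K4me2, CHD1 0.047 to 0.57 in H3K4me2 and 0.0092 to 0.48 in H3K27me3, and ASH2L -0.71 to 0.12 in H3K27me3, and for input RNF2 -0.66 to 0.0089 and CHD1 -0.21 to 0.042. Within-array loess gave KAT7 1.49 in H3K4me2, against 1.94 in the main setting, a move of more than 1 SD between bulls. The authors' value table gave 1.55. G and C correction, added after seeing the data, moved no member by more than 1 SD. The share of spots with ChIP signal well above background was lowest on the H3K4me2 array of HF5 (93.9%).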
